A study of Mus musculus with 6 samples.

Results

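The 34 genes described here are targets of hypoxia-inducible factor (HIF) that lie outside glycolysis. They were taken by symbol, through the Ensembl IDs of GENCODE M21, from 43432 gene IDs in the count tables of 6 RNA-seq libraries. Of the 34, 31 passed the filter on low counts and were tested among 12908 genes, while Plod2, Ppp1r3c and Tmem45a did not pass. Every library came from CD45+ CD11b+ Ly6Ghi neutrophils, sorted from the digested uterus of C57BL/6 mice of a tumour-bearing line called PRPL. These mice carry Pgrcre/+, in which Cre is expressed from the progesterone receptor gene, and uterine tumours form; mice in both groups were of this line and were killed at postnatal day 28, at 4 weeks of age. The normoxia group (3 libraries) was kept in ambient oxygen, and the hyperoxia group (3 libraries) spent 10 days in a chamber at 60% oxygen, from postnatal day 18 on. No library came from a mouse outside this line, and the labels do not say whether each library is a separate animal, so p-values measure the spread between libraries, which may be technical in part.

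HIF is made of an oxygen-labile alpha subunit and a stable partner, ARNT. In well-oxygenated cells the EGLN prolyl hydroxylases mark the alpha subunit for destruction by VHL, and in hypoxia the alpha subunit accumulates, binds short DNA cores in target promoters and raises transcription. Neutrophils rely on glycolysis and have few mitochondria, and HIF is known to prolong their survival; its targets outside glycolysis remodel mitochondria, fold and crosslink collagen, remove histone methylation, restrain growth and regulate pH.

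The promoters of 6 members are shown first as examples of the patterns described below, because the binding core of HIF can be read in them. The core was searched as ACGTG or GCGTG on both strands (CACGT and CACGC on the strand shown) in the 250 bases before each annotated start, with capitals marking every match; matches may overlap. The sequences are those of RefSeq on build GRCm38.p6, written 5′ to 3′ along the gene's own strand. Of the 6, Bnip3, Fam162a, Wsb1 and P4ha1 were highest in hyperoxia replicate 1 and lowest in hyperoxia replicate 2, Ankrd37 was lower in every hyperoxia library than in any normoxia library, and Rora was higher in every one.
Bnip3 (chr7:138909507-138909756, minus strand): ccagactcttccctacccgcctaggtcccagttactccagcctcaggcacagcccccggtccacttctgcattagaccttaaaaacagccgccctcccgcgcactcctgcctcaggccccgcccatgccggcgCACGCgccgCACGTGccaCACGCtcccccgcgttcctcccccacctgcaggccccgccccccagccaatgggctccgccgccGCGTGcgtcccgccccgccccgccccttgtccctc
Fam162a (chr16:36071562-36071811, minus strand): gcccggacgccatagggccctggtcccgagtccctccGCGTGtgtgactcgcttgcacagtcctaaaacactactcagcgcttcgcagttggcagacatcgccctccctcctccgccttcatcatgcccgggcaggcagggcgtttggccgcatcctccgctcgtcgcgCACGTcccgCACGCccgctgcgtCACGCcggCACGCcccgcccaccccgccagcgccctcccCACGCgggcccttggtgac
Wsb1 (chr11:79254696-79254945, minus strand): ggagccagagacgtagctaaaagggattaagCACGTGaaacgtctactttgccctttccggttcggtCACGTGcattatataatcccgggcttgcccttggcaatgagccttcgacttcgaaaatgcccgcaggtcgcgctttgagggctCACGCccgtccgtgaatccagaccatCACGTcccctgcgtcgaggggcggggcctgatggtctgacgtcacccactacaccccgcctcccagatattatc
P4ha1 (chr10:59323046-59323295, plus strand): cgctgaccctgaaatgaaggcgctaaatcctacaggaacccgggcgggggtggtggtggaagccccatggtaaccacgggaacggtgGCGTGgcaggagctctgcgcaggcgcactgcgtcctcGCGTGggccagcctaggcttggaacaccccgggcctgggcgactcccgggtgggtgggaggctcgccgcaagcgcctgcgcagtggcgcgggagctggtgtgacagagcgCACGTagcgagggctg
Ankrd37 (chr8:45999851-46000100, minus strand): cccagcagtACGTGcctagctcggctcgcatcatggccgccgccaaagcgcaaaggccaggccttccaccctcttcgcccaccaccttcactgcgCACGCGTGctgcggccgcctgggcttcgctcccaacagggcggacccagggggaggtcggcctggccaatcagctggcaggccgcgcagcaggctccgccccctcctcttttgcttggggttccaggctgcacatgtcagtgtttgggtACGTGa
Rora (chr9:68653536-68653785, plus strand): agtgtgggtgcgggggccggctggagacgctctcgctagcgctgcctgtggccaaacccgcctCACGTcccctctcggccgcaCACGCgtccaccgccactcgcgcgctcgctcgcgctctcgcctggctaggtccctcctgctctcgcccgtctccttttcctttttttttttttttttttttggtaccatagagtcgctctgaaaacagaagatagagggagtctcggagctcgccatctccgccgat

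Of the 34 members, 26 matched the promoter table, and 23 of these (88.5%) held the core in at least 1 of their windows. The same held for 41.5% of all 27025 genes. By window, the core occurred in 27 of 37 member windows (73.0%) and in 38.6% of all 32851 windows of the same length. Windows of the same gene can overlap, as some of Ak4 do, so the same match can be counted more than once. Wsb1 has a second annotated start whose window held no match. Mif, Vldlr and Car12 matched the table and held no match in any window. These are descriptions of letters and say nothing about binding in these cells.

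Much of the set was abundant in the sorted cells. Levels of different genes were compared as CPM (a gene's count relative to the library size, scaled by the trimmed mean of M values) divided by the kilobases of exon. On that scale 17 of the 31 tested members stood above the 80th percentile of all genes tested. Fam162a, a mitochondrial protein linked to cell death, led with a mean of 241 CPM per kilobase over the 6 libraries. Bhlhe40, a transcriptional repressor, followed at 148, Bnip3, a receptor that sends mitochondria to autophagy, at 147, and Mif, a secreted cytokine, at 145. Cited2, which competes with HIF for a coactivator, averaged 109 CPM per kilobase, Wsb1, part of a ubiquitin ligase, 107, and Ero1l, an oxidase of the endoplasmic reticulum, 95.5. At the low end Rora and Vldlr stood at 0.0409 and 0.0299 CPM per kilobase, the 2.04 and 0.887 percentiles of genes tested.

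**Figure D1:**
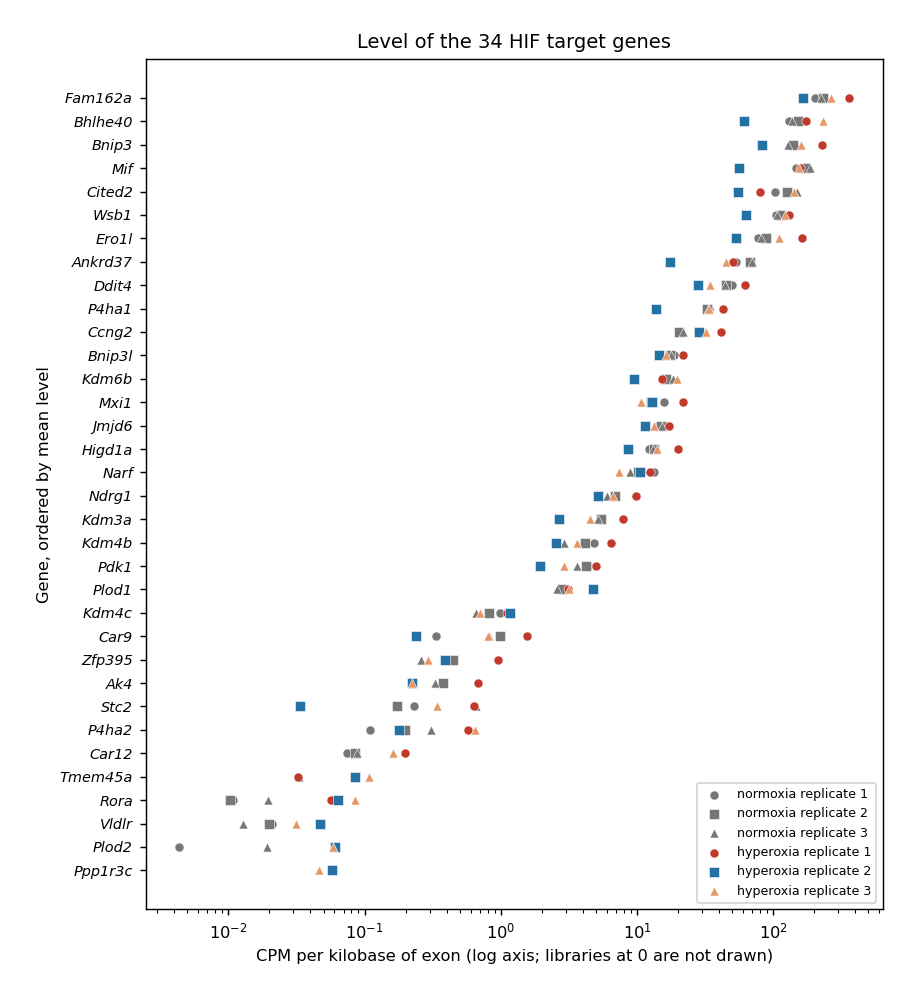
Level of each of the 34 genes in each of the 6 libraries, in CPM per kilobase of exon on a log axis, ordered by the mean; gray symbols are normoxia libraries and coloured symbols hyperoxia libraries, and libraries at 0 are not drawn. Levels run from 241 CPM per kilobase on average for Fam162a down to genes with 0 counts in several libraries, and for most of the abundant genes the blue square of hyperoxia replicate 2 lies left of the others.

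Before the groups are compared, 1 library needs to be described, hyperoxia replicate 2. The granule gene Ltf stood at 2552 CPM there and at 142 to 373 CPM in all other libraries, and Camp at 385 CPM against 4.25 to 37.9. The summed CPM of 9 epithelial markers was 102 to 223 in normoxia and 280.5, 15.1 and 246 in hyperoxia replicates 1 to 3, with 0 of the 9 at 0 counts in any library; Epcam alone stood at 29.3, 1.49 and 20.1 CPM in hyperoxia. All 12 neutrophil markers had counts in every library, and Ly6g, the sorting marker, stood at 53.4 to 146 CPM in normoxia and at 196, 351 and 38.9 CPM in hyperoxia. Library sizes ranged from 38683293 to 61715617 counts, the largest being hyperoxia replicate 2. In sorted pools of cells, fewer cells of a type and less RNA per cell cannot be told apart.

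Between groups, 0 members were called by edgeR at an adjusted p under 0.05, as were 0% of all genes tested. DESeq2 called Rora alone among the members, as higher, where it called 3.43% of genes in all and 3.15% as higher. At an unadjusted p under 0.05, edgeR counted 3 of 31 members higher in hyperoxia (Rora, Ccng2 and Vldlr), against 9.10% of all genes tested, and 0 lower, against 3.91%. The share of members is near that of all genes. Rora and Vldlr passed the filter on low counts only through the hyperoxia libraries, where they are high, so their 2 places in this count are favoured by the filter. The count of members in either direction was 8 without hyperoxia replicate 2 (25.8%) and 1 without normoxia replicate 2 (3.23%). In these fits the shares were 14.3% and 6.57% of the 12908 genes that had been tested with all libraries. The median log2 difference (hyperoxia minus normoxia) over the 31 members was 0.13, with 18 above 0 and 13 below, beside a median of 0.04 over all genes tested. The 95% interval of the difference held 0 for 28 members, and for 16 members it lay entirely within a 2-fold change in either direction.

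**Figure D2:**
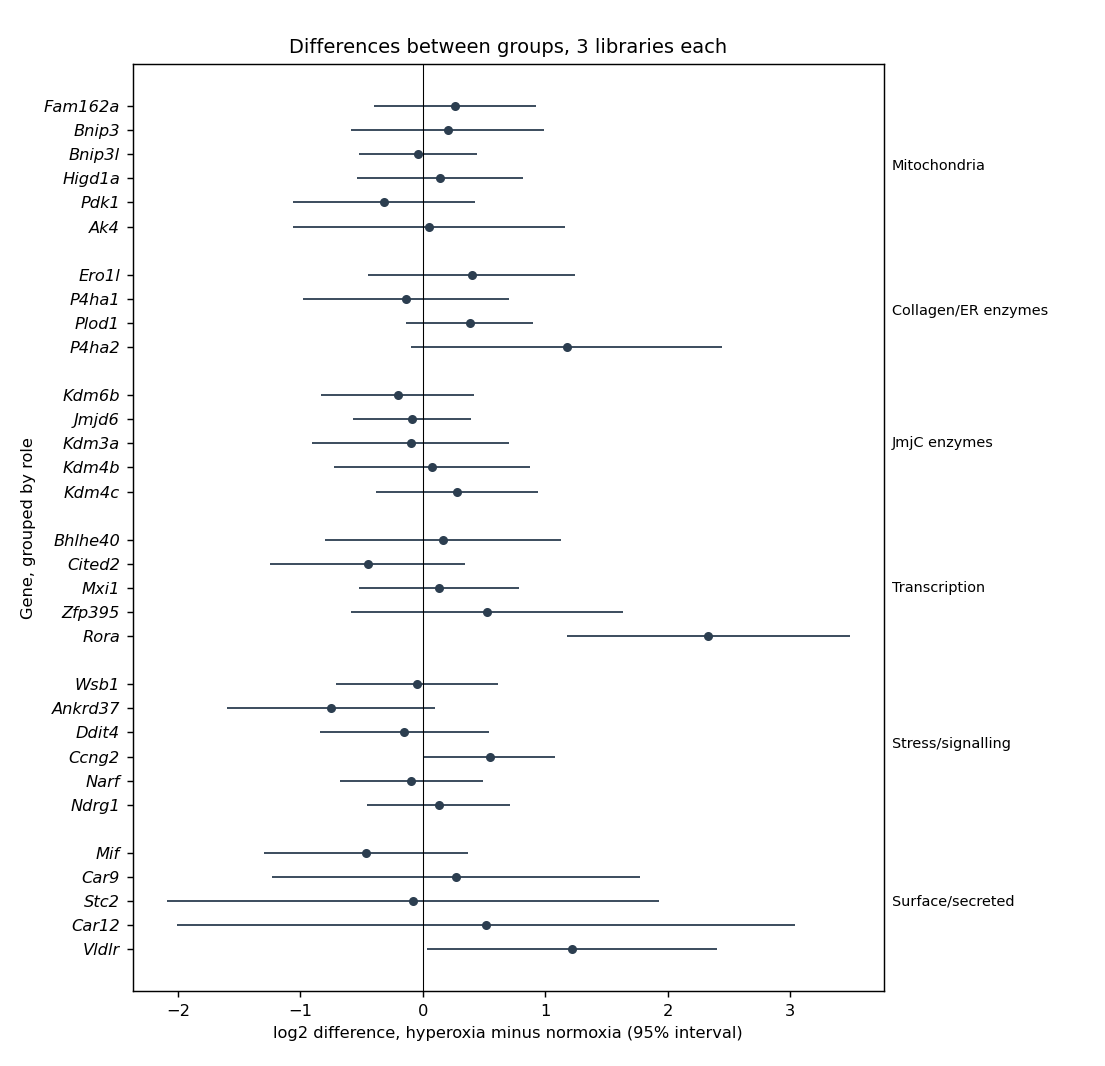
Log2 difference between groups (hyperoxia minus normoxia) for the 31 tested genes, grouped by role, with the point for edgeR's estimate and the line for its 95% interval, 3 libraries per group. Most intervals hold 0, Rora stands farthest to the right at 2.33, and the intervals of Stc2 and Car12 are the widest.

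Within the hyperoxia group the members spread widely from library to library. In 15 of the 31 tested members hyperoxia replicate 1 was the highest and hyperoxia replicate 2 the lowest of all 6 libraries, an order seen in 6.86% of genes tested; this order was chosen for counting after the values were seen, and the members' share was 48.4%. Hyperoxia replicate 2 was the lowest library for 21 of 31 members (67.7%, against 26.0% of genes tested), and hyperoxia replicate 1 the highest for 20 (64.5%, against 15.4%). Among the 30 members with a count in hyperoxia replicate 2, 18 were more than 2-fold higher in replicate 1 than in replicate 2 (60.0%, against 13.6% of genes tested). Relative to the normoxia mean, the median member deviated in log2 CPM by 0.57 in hyperoxia replicate 1, by -0.64 in replicate 2 and by 0.12 in replicate 3, where the median gene tested deviated by no more than 0.014 in either direction.

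The normoxia libraries were close together: in 22 of 31 members their highest value was less than 1.5 times the lowest, as in 59.7% of genes tested. The SD of log2 CPM was larger among hyperoxia than among normoxia libraries for 29 of 31 members, against 79.4% of genes tested, with medians over members of 0.67 and 0.13. The group difference of a typical member therefore sums a high library, a low library and a middle one, and its direction moved with them. Without hyperoxia replicate 1 the median log2 difference over members was -0.20, and without hyperoxia replicate 2 it was 0.34. The number of members whose groups did not overlap was 5 on all libraries, where 19.9% of all genes tested did not overlap, and it was 11 without hyperoxia replicate 1 and 13 without hyperoxia replicate 2. With fewer libraries more genes do not overlap: the members' shares were 35.5% and 41.9% in these settings, and those of all genes tested 36.4% and 32.6%.

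**Figure D3:**
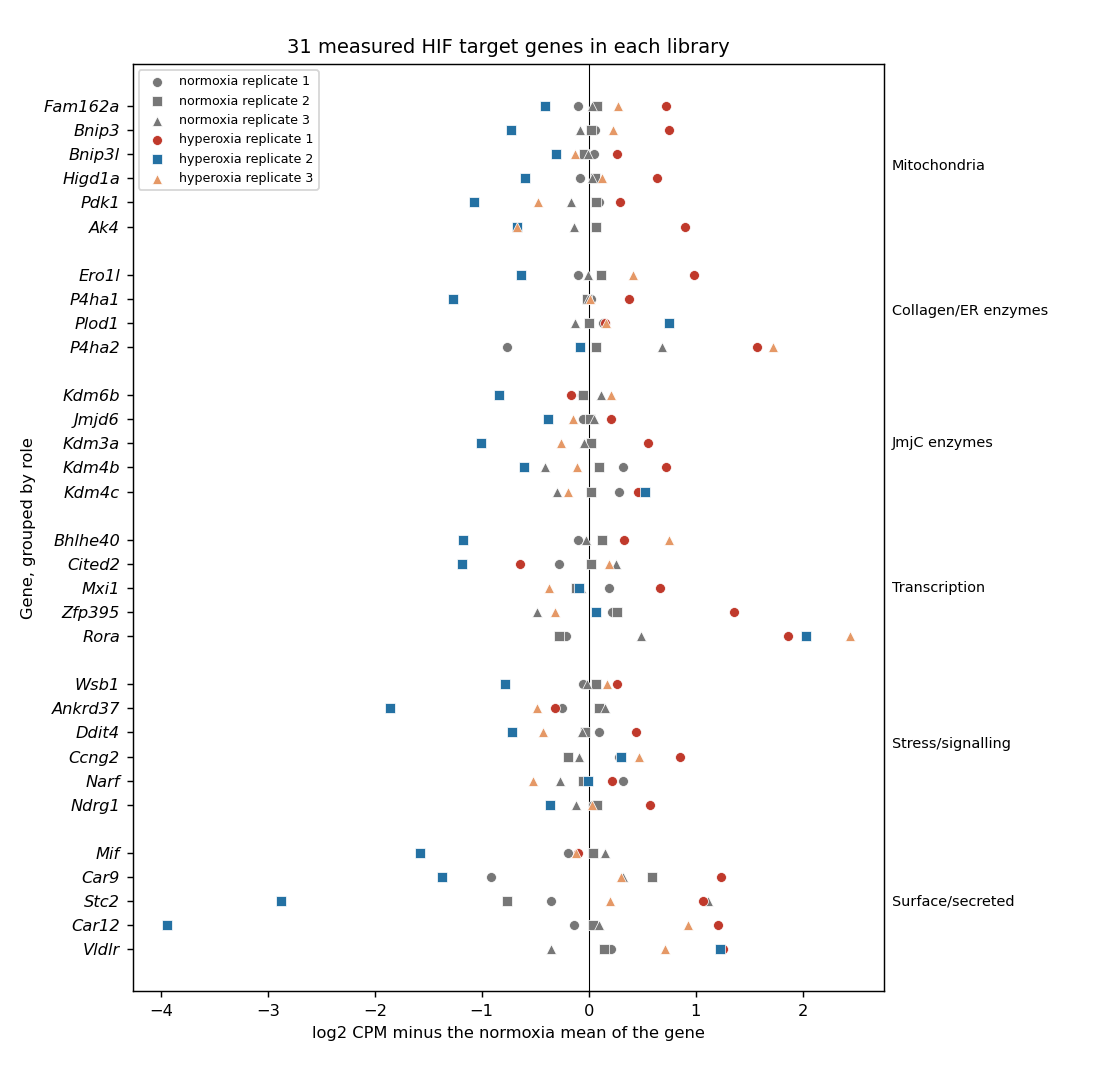
Log2 CPM of the 31 tested genes in each library minus the gene's mean over the 3 normoxia libraries, grouped by role. Gray normoxia symbols cluster near 0, while the red circles of hyperoxia replicate 1 lie mostly to the right and the blue squares of hyperoxia replicate 2 mostly to the left; for Plod1, Kdm4c, Zfp395, Rora, Ccng2 and Vldlr the blue square lies to the right of 0.

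Of the mitochondrial members, 5 of 6 had this order. Bnip3 stood at 323, 315 and 292 CPM in normoxia replicates 1 to 3 and at 521, 187 and 361 CPM in hyperoxia replicates 1 to 3. The hyperoxia libraries lay on both sides of the normoxia range, and the log2 difference was 0.20 ± 0.34 (SE), with a 95% interval from -0.58 to 0.99 and an adjusted p of 0.856 in edgeR. Of its 50-base words 47.2% also occur in transcripts of other genes, pseudogenes and an antisense gene among them, so its level is uncertain. Fam162a stood at 174, 196 and 190.0 CPM in normoxia and at 307, 140.0 and 225 CPM in hyperoxia, a log2 difference of 0.26 ± 0.29 (SE). Its hyperoxia values again lay both above and below normoxia. Of the words of Fam162a, 13.3% are shared with Wdr5b, whose exons overlap it on the opposite strand. Bnip3l, the closest relative of Bnip3 and also a mitophagy receptor, varied less, with 71.8, 67.4 and 69.0 CPM in normoxia and 83.4, 56.0 and 63.5 CPM in hyperoxia. Its log2 difference was -0.04 ± 0.21 (SE, 95% interval -0.52 to 0.44), and 20.8% of its words are shared with a pseudogene.

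Pdk1, a pyruvate dehydrogenase kinase of mitochondria, stood at 33.8, 33.0 and 28.2 CPM in normoxia and at 38.6, 15.0 and 22.8 CPM in hyperoxia. With 2 of 3 hyperoxia libraries under every normoxia library, its log2 difference was -0.32 ± 0.33 (SE). Higd1a, a small protein of the inner mitochondrial membrane with 24.4% of its words shared with other genes, ranged from 36.9 to 40.7 CPM in normoxia and from 26.0 to 61.0 CPM in hyperoxia. Ak4, a mitochondrial adenylate kinase, was low, at 1.52 to 1.76 CPM in normoxia and at 3.16, 1.03 and 1.03 CPM in hyperoxia.

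Collagen-modifying and folding enzymes were split. Ero1l, which passes oxidising power to newly made disulfide bonds, stood at 405, 469 and 432 CPM in normoxia and at 862, 279.8 and 581 CPM in hyperoxia, a 3.08-fold ratio of hyperoxia replicate 1 to replicate 2. Its log2 difference was 0.40 ± 0.37 (SE, 95% interval -0.45 to 1.24), with an adjusted p of 0.697 in edgeR. P4ha1, a catalytic subunit of collagen prolyl hydroxylase, was almost level in normoxia at 138, 135 and 136 CPM, and stood at 177, 56.7 and 138 CPM in hyperoxia. Hyperoxia replicate 1 lay above the narrow normoxia range and hyperoxia replicate 2 far under it, and the log2 difference of -0.14 ± 0.37 (SE) was -0.47 without hyperoxia replicate 1. P4ha2, its homologue, was scarce, at 0.679, 1.24 and 1.93 CPM in normoxia and 3.59, 1.11 and 4.00 CPM in hyperoxia, with a log2 difference of 1.17 ± 0.56 (SE) and an adjusted p of 0.414 in edgeR.

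Plod1, a lysyl hydroxylase that prepares collagen for crosslinks, ran against the common order. Its values were 20.8, 19.1 and 17.4 CPM in normoxia and 21.2, 32.1 and 21.4 CPM in hyperoxia, so the groups did not overlap and hyperoxia replicate 2 was the highest. The log2 difference was 0.38 ± 0.23 (SE) with an adjusted p of 0.512 in edgeR. The groups overlapped when libraries were scaled by size only. Plod2, a related lysyl hydroxylase, had 1, 0 and 4 counts in normoxia and 0, 21 and 15 counts in hyperoxia and was not tested.

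JmjC enzymes, which need oxygen themselves to demethylate histones or hydroxylate lysines, centred on a median log2 difference of -0.09 over 5 members. Kdm3a, a demethylase of histone H3 lysine that acts on repressive marks, stood at 44.8, 44.9 and 42.8 CPM in normoxia and at 64.9, 22.0 and 36.9 CPM in hyperoxia. The spread in hyperoxia took in the whole normoxia range, and the log2 difference was -0.10 ± 0.35 (SE, 95% interval -0.90 to 0.71). Kdm6b, which removes Polycomb marks and is induced in inflammation, stood at 114, 114 and 128 CPM in normoxia and at 106, 66.5 and 137 CPM in hyperoxia. Here replicate 3, not replicate 1, was the highest, and the log2 difference was -0.20 ± 0.27 (SE). Kdm4b ranged from 14.3 to 23.7 CPM in normoxia and from 12.5 to 31.4 CPM in hyperoxia, Kdm4c from 3.80 to 5.71 and from 4.09 to 6.75 CPM, and Jmjd6 from 67.0 to 72.1 and from 53.5 to 80.6 CPM.

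Among transcriptional regulators, 0 of 5 had hyperoxia replicate 1 highest and replicate 2 lowest. Rora, a nuclear receptor known for its part in the circadian clock and in innate lymphoid cells, stood at 0.140, 0.133 and 0.257 CPM in normoxia and at 0.734, 0.831 and 1.12 CPM in hyperoxia. All 3 hyperoxia libraries lay above all normoxia libraries, on 29, 53 and 53 counts against 6, 6 and 10. The filter asks for 0.225 CPM, before scaling, in 3 libraries, which 1 normoxia and 3 hyperoxia libraries reached for Rora. Its log2 difference was 2.33 ± 0.51 (SE, 95% interval 1.17 to 3.48). The unadjusted p was 0.00152 in edgeR, whose adjusted p was 0.14, while DESeq2 gave an adjusted p of 0.0118. The difference stayed between 2.14 and 2.74 when each library was left out, with adjusted p values from 0.078 to 0.542 in edgeR. Exons of Rora overlap those of Gm15511 on the opposite strand, and the files do not tell strands apart.

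Values of marker lists of other cell types are given here beside Rora. The markers tested were first counted at an unadjusted p under 0.05 in edgeR. Higher in hyperoxia were 7 of 12 macrophage, 6 of 8 dendritic cell and MHC class II, and 7 of 9 endothelial markers. So were 7 of 8 stromal, 5 of 6 smooth muscle, 3 of 8 T and NK cell and 3 of 4 B cell markers. The share over all genes tested was 9.10%. In these lists 0 were lower, and 0 passed an adjusted p of 0.05 in edgeR. DESeq2, which called Rora, called 6 macrophage, 5 dendritic cell and MHC class II, and 6 endothelial markers as higher. It also called as higher 3 stromal markers, 3 of smooth muscle, 1 of T and NK cells and 0 of B cells. In all, 3.15% of genes were called as higher. The summed CPM of 12 macrophage markers was 1469 to 1608 in normoxia and 1999 to 3005 in hyperoxia, that of 8 dendritic cell and MHC class II markers 473 to 513 and 698 to 2092, and that of 9 endothelial markers 9.93 to 15.9 and 28.2 to 67.0. The sum of 6 smooth muscle markers was 15.6 to 22.2 in normoxia and 24.4 to 50.4 in hyperoxia. The groups overlapped for the sum of 9 stromal markers, at 18.3 to 56.8 and 35.3 to 244, and for that of 8 T and NK cell markers, at 4.99 to 15.1 and 6.00 to 24.0. They also overlapped for the sum of 5 B cell markers, at 1.33 to 2.44 and 1.97 to 7.41. At 0 counts in some library were 2 endothelial markers, Cdh5 among them in normoxia replicate 2, 1 stromal marker and 2 B cell markers, but 0 of the other 4 lists. The part of these cells in the Rora difference was not tested.

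Bhlhe40, which is also a clock gene, stood at 611, 715 and 641 CPM in normoxia and at 821, 289 and 1097 CPM in hyperoxia. Its widest gap was within the hyperoxia group, between replicates 2 and 3, and the log2 difference was 0.17 ± 0.42 (SE, 95% interval -0.80 to 1.13). Cited2 stood at 253, 311 and 365 CPM in normoxia and at 196, 134 and 349 CPM in hyperoxia. In 2 of 3 hyperoxia libraries it lay under every normoxia library, with a log2 difference of -0.45 ± 0.35 (SE) and an adjusted p of 0.628 in edgeR. Mxi1, an antagonist of MYC, ranged from 86.6 to 107 CPM in normoxia and from 72.4 to 149 CPM in hyperoxia, and Zfp395, a zinc finger protein, from 1.23 to 2.11 and from 1.39 to 4.53 CPM.

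Groups did not overlap for 5 of the 31 members, 4 with hyperoxia higher (Rora, Ccng2, Vldlr and Plod1, of which Rora and Vldlr were favoured by the filter) and 1 lower (Ankrd37); among all genes tested 9.57% were higher and 10.3% lower in this way. Ankrd37, an ankyrin repeat protein, was the member with the most negative difference. It stood at 81.6, 104 and 108 CPM in normoxia and at 78.0, 26.7 and 69.3 CPM in hyperoxia. The gap between the groups was narrow on the side of normoxia replicate 1 and hyperoxia replicate 1, and the log2 difference of -0.75 ± 0.37 (SE, 95% interval -1.60 to 0.10) had an adjusted p of 0.431 in edgeR. Its difference was -0.39 without hyperoxia replicate 2. Its exons overlap Lrp2bp and Ufsp2 on the opposite strand, and 17% of its 50-base words also occur in transcripts of those genes.

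Ccng2, an atypical cyclin that slows the cell cycle, stood at 153, 111 and 118 CPM in normoxia and at 227, 156 and 174 CPM in hyperoxia. The lowest hyperoxia library lay just above the highest normoxia library. Its log2 difference was 0.55 ± 0.23 (SE, 95% interval 0.01 to 1.08), with an unadjusted p of 0.046 and an adjusted p of 0.375 (edgeR). Its groups overlapped under upper quartile scaling, as did those of Ankrd37, which also overlapped without normoxia replicate 3. Ddit4, an inhibitor of mTORC1, stood at 86.7, 78.8 and 77.6 CPM in normoxia and at 109.7, 49.3 and 60.0 CPM in hyperoxia. It followed the common order, with a log2 difference of -0.15 ± 0.30 (SE, 95% interval -0.84 to 0.54).

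Ndrg1, a stress-induced regulator of growth and differentiation, stood at 44.5, 45.7 and 40.0 CPM in normoxia and at 64.4, 33.8 and 44.2 CPM in hyperoxia. Its log2 difference was 0.13 ± 0.26 (SE, 95% interval -0.46 to 0.71), with 1 hyperoxia library above, 1 inside and 1 below the normoxia range. Wsb1 stood at 417, 456 and 428 CPM in normoxia and at 520.1, 252 and 489 CPM in hyperoxia, with 2 of 3 hyperoxia libraries above the normoxia range and a log2 difference of -0.05 ± 0.29 (SE). Narf, a nuclear protein that binds prelamin A, ranged from 42.5 to 63.7 CPM in normoxia and from 35.5 to 59.4 CPM in hyperoxia. Ppp1r3c, which targets a phosphatase to glycogen, had 0 counts in every normoxia library and in hyperoxia replicate 1, and 10 and 6 counts in the other two; a count of 0 allows up to 3 counts, which is 0.0666 to 0.0771 CPM in the normoxia libraries, counting error only.

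Surface and secreted members held the widest swings. Mif stood at 109, 128 and 139 CPM in normoxia and at 116, 42.0 and 115 CPM in hyperoxia. Only hyperoxia replicate 2 left the normoxia range, the log2 difference was -0.46 ± 0.37 (SE, 95% interval -1.30 to 0.37), and the value is uncertain because 50.9% of the gene's 50-base words occur in transcripts of other genes. Car9, a carbonic anhydrase of the cell surface that is a classic hypoxia marker, stood at 0.773, 2.26 and 1.88 CPM in normoxia and at 3.57, 0.549 and 1.85 CPM in hyperoxia. The 6.50-fold gap between hyperoxia replicates 1 and 2 exceeded any gap in normoxia, and the log2 difference was 0.27 ± 0.66 (SE, 95% interval -1.23 to 1.77). Car12, a related carbonic anhydrase, had 24, 29 and 26 counts in normoxia and 59, 0 and 58 counts in hyperoxia. Stc2, a secreted glycoprotein, had 51, 40 and 132 counts in normoxia and 129, 11 and 84 counts in hyperoxia.

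Vldlr, a lipoprotein receptor, was near the limit of detection but did not overlap, with 0.211, 0.200 and 0.128 CPM in normoxia and 0.481, 0.470 and 0.316 CPM in hyperoxia. These values rest on 9, 9 and 5 counts against 19, 30 and 15, and 0 normoxia libraries reached the filter's minimum, so Vldlr was tested only because it is high in hyperoxia. The log2 difference was 1.22 ± 0.52 (SE, 95% interval 0.03 to 2.4), with an unadjusted p of 0.0455 and an adjusted p of 0.375 (edgeR); DESeq2 gave an adjusted p of 0.507. Tmem45a, a membrane protein, had 0, 0 and 4 counts in normoxia and 4, 17 and 16 counts in hyperoxia and was not tested.

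The order of the epithelial sums in hyperoxia, replicate 1 above 3 above 2, is that of the median member, and of Car9, Car12 and Stc2, in the same libraries. The median epithelial marker had another order, with its deviation from normoxia largest in replicate 3, then in 1, then in 2. Of the 9 epithelial markers, 4 were highest in hyperoxia replicate 1 and lowest in replicate 2 of all 6 libraries. That is 44.4%, against 6.86% of genes tested. Krt18, Cldn3, Cldn4 and Wfdc2 were highest in hyperoxia replicate 3. From normoxia replicate 1 to 3 the epithelial sum rose from 102 to 223 CPM. The median member deviated by 0.019, 0.039 and -0.017 in these normoxia libraries. The part of granule content, epithelial RNA and depth in the order of the members was not tested.

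**Figure D4:**
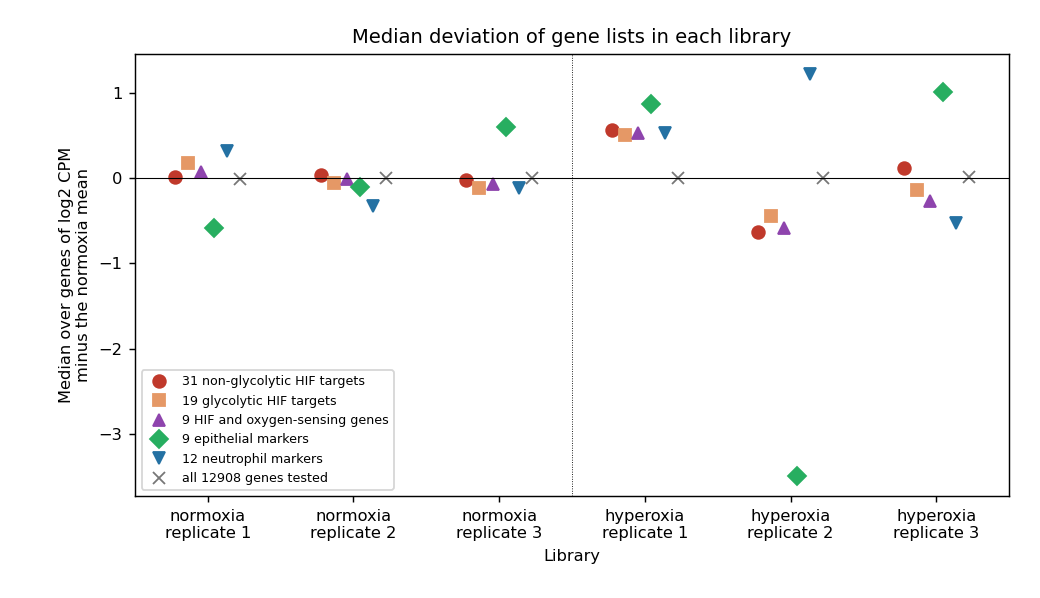
Median over the genes of each list of log2 CPM minus the gene's normoxia mean, in each of the 6 libraries; symbols stand for lists and are offset sideways to stay visible. The 3 HIF lists drawn lie above 0 in hyperoxia replicate 1 and below 0 in replicate 2, at 0.57 and -0.64 for the 31 genes, while in replicate 2 epithelial markers stand at -3.50 and neutrophil markers at 1.22.

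Glycolytic targets of HIF, the closest set of genes, had the same order. Of 19, 12 were highest in hyperoxia replicate 1 and lowest in replicate 2 (63.2%, against 6.86% of genes tested). At an unadjusted p under 0.05 in edgeR, 0 of 19 were higher and 0 lower, against 9.10% and 3.91% of all genes tested. Slc2a1, a glucose transporter, stood at 875, 772 and 679 CPM in normoxia and at 1177, 406 and 648 CPM in hyperoxia. Ldha, lactate dehydrogenase, had a log2 difference of 0.20 ± 0.26 (SE), and Pgk1, a kinase of glycolysis, 0.07 ± 0.26 (SE). Neither difference exceeded the spread between libraries. The median log2 CPM deviations of the 19 genes in hyperoxia replicates 1 to 3 were 0.51, -0.44 and -0.14.

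Among HIF subunits and oxygen sensors, 5 of 9 tested genes had that order and 0 had an unadjusted p under 0.05 in edgeR. Hif1a, the alpha subunit most abundant in these libraries, stood at 233, 184 and 178 CPM in normoxia and at 285, 102 and 132 CPM in hyperoxia, a log2 difference of -0.20 ± 0.37 (SE). Egln3, a prolyl hydroxylase that HIF itself induces, stood at 374, 373 and 363 CPM in normoxia and at 658, 199 and 334 CPM in hyperoxia, again above and below normoxia. Egln1, the main oxygen sensor of most cells, had a log2 difference of 0.33 ± 0.29 (SE). Epas1, the alpha subunit prominent in endothelium, was under 2.5 CPM in every library and had a log2 difference of 1.38 ± 0.63 (SE, 95% interval -0.05 to 2.81).

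Of 12 further HIF targets, 3 were higher at an unadjusted p under 0.05 in edgeR and 0 lower, against 9.10% and 3.91% of all genes tested. Their median log2 difference was 0.83, beside 0.04 over all genes tested. Of the 12, 3 had hyperoxia replicate 1 highest and replicate 2 lowest (25%, against 6.86% of genes tested). Their median deviations in hyperoxia replicates 1 to 3 were 0.67, -0.18 and 0.81, highest in replicate 3. The 3 genes higher in hyperoxia included Angptl4, an inhibitor of lipoprotein lipase (log2 difference 1.76 ± 0.48, SE), and Igfbp3, a binding protein of insulin-like growth factors (1.20 ± 0.48). Their adjusted p values in edgeR were 0.191 and 0.349, and DESeq2 called Angptl4 with an adjusted p of 0.0125. Angptl4 averaged 1.11 ± 0.419 CPM in normoxia and 3.77 ± 1.84 CPM in hyperoxia (SD, n = 3 each), low beside Vegfa, the vessel growth factor, at 230.3 ± 12.4 and 273 ± 72.4 CPM (SD, n = 3 each). The log2 difference of Vegfa was 0.25 ± 0.24 (SE).

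JmjC demethylases outside the set had 0 genes higher and 1 lower of 8 tested at an unadjusted p under 0.05 in edgeR. Among all genes tested 9.10% were higher and 3.91% lower. Of the 8, 2 had hyperoxia replicate 1 highest and replicate 2 lowest (25%, against 6.86% of genes tested). The lower gene was Kdm3b, a relative of Kdm3a, at 16.4, 15.7 and 15.6 CPM in normoxia and 12, 10.4 and 10.7 CPM in hyperoxia (log2 difference -0.53 ± 0.18, SE, adjusted p of 0.287). Its groups did not overlap, where Kdm3a spread across the normoxia range. Of 19 tested relatives of other members, 2 were higher at an unadjusted p under 0.05 in edgeR and 0 lower. Their share is near the 9.10% of all genes tested that were higher, and 3.91% were lower. The 2 were Ak3, a mitochondrial adenylate kinase like Ak4 (0.93 ± 0.33), and Car13, a cytosolic carbonic anhydrase (1.11 ± 0.44). Their adjusted p values in edgeR were 0.304 and 0.35. In 2 of the 19 relatives hyperoxia replicate 1 was highest and replicate 2 lowest (10.5%, against 6.86% of genes tested).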

How the data were processed

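RNA-seq counts were analysed for 3 normoxia and 3 hyperoxia libraries. For each library the authors deposited a table of whole-number gene counts, not normalized. STAR 2.4.2a, DESeq2 1.16.1 and build GRCm38 appear, with no role or order, per the submitters' processing notes. How reads were counted, on which strand and against which annotation is not given in the sources used here. Symbols, positions and exon lengths came from GENCODE M21, which matched 42462 of 43432 IDs. Counts were tested with edgeR 4.0.16 in R 4.3.3: filterByExpr at its defaults, TMM scaling, a robust quasi-likelihood fit and two-sided p-values, adjusted by Benjamini and Hochberg's method across the 12908 genes that passed. A standard error is the log2 difference over the root of its F statistic; the common biological coefficient of variation was 36.3%. Deviations of single libraries use log2 CPM with a prior count of 2. DESeq2 1.42.0, limma-voom (limma 3.58.1), other scalings and filters, and leaving out each library were alternatives. All pairs of libraries differed by more than counting noise (chi-square per degree of freedom of 29.8 to 726), so none was merged. Exon overlap and words of 50 bases shared with other transcripts mark genes whose reads may be misplaced: 12 members overlap a gene on the opposite strand, and Bnip3 (47.2%) and Mif (50.9%) share most. The members, lists and roles were chosen with earlier results of these data known. Values in every library are given for members with an unadjusted p under 0.05, groups that do not overlap or a DESeq2 call, for the 8 highest levels per kilobase, and for 10 chosen by name; other lists give at most 4 members under an unadjusted p of 0.05 and 8 genes chosen by name. Ltf, Camp, Epcam, Cdh5 and Ly6g, and library values of some other members, were chosen after their values were seen. Part of the genotype and 1 gene that the naming rule covers are not reported here.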

Additional observations from a re-analysis of the deposited data

How the results depend on the processing

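Over all genes, edgeR called 0; DESeq2 called 513, limma-voom with sample quality weights 36, edgeR without a filter 214 and at a threshold of 0.1 it called 30, and leaving out a library gave 0 to 176, the highest without hyperoxia replicate 1. DESeq2 was the alternative that called a member, Rora. The count of members with an unadjusted p under 0.05 ran from 1 to 8 when a library was left out (1 without normoxia replicate 2, 8 without hyperoxia replicate 2), while the share of all genes ran from 6.57% to 17.5%, that of other pathway genes and relatives from 2 to 14, and that of members whose groups do not overlap from 4 to 13, where 24.0% to 36.4% of all genes did not overlap, or 3 with upper quartile scaling, where 19.0% did not; the last 2 sets of alternatives were chosen after seeing the data. The order with hyperoxia replicate 1 highest and replicate 2 lowest held for 13 to 16 members under other scalings. The median difference over members lay between -0.20 and 0.34 when a library was left out and was -0.06 in limma-voom. Because edgeR called 0 members, every change of sign necessarily fell on a member that it did not call. Car12 and Zfp395, at 0.52 each on all libraries, were among those that turned. In limma-voom Ak4 was -0.22, Kdm4b -0.016, Bhlhe40 -0.024, Car9 -0.078 and Car12 -1.81; with quality weights Ak4 was -0.19, Car9 -0.026, Car12 -0.75 and Wsb1 0.0024; with upper quartile scaling Bnip3l was 0.0024 and Wsb1 0.0049; with library size only Ak4 was -0.021. When a library was left out, 20 members turned sign: Bnip3 ranged from -0.15 to 0.53, Bnip3l from -0.19 to 0.10, Higd1a from -0.17 to 0.42, Fam162a from -0.0065 to 0.53, Ak4 from -0.66 to 0.34, P4ha1 from -0.47 to 0.23, Kdm3a from -0.56 to 0.23, Kdm4b from -0.34 to 0.35, Kdm6b from -0.46 to 0.049, Jmjd6 from -0.23 to 0.062, Mxi1 from -0.20 to 0.33, Bhlhe40 from -0.24 to 0.57, Zfp395 from -0.12 to 0.82, Ddit4 from -0.54 to 0.089, Ndrg1 from -0.13 to 0.34, Wsb1 from -0.20 to 0.24, Narf from -0.23 to 0.16, Stc2 from -0.92 to 0.80, Car9 from -0.43 to 0.75 and Car12 from -0.049 to 1.14. The causes were not tested. No paired analysis was possible because the labels give no replicate numbers shared between the groups. Counts of Rora, Vldlr, Plod2, Ppp1r3c and Tmem45a were under 60 in every library, which limits their precision.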
